A study of Homo sapiens with 6 samples.

Results

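Ephrins, Eph receptors, Slits, Robos, netrins and UNC5 receptors are the classical guidance cues and their receptors. They were taken from the RNA-seq count table by gene symbol (EFNA and EFNB, EPHA and EPHB, SLIT, ROBO, NTN and UNC5 followed by the member's own number or letter), which found 34 members among 34811 genes. The members comprised 5 A-type ephrins, 3 B-type ephrins, 8 EphA receptors, 5 EphB receptors, 3 Slits, 3 Robos, 4 netrins and 3 UNC5 receptors. The samples were OVCAR-3 cells, an established human ovarian carcinoma line, stably transfected with a pRS HuSH-29 plasmid that carried either a scrambled shRNA (OV3/SCR) or an shRNA against COX-1 (OV3/COX1KD) and selected with puromycin. Each condition was represented by 1 clone, OV3/SCR clone #1 and OV3/COX1KD clone #2, both grown in RPMI-1640 with FBS, and by 3 libraries made from independent passages. Because of this, COX-1 knockdown and the difference between the clones cannot be told apart in any comparison given here, and the p-values measure only the spread between passages of a clone.

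Ephrins are ligands anchored in the cell membrane, A-type ephrins by a lipid anchor and B-type ephrins by a transmembrane segment, and they bind Eph receptor tyrosine kinases on the neighbouring cell. Signals run in both directions from this contact, into the Eph cell and back into the ephrin cell, and they govern repulsion, adhesion and the sorting of cells into separate territories. Slits are secreted ligands of Robo receptors and repel migrating cells and axons, whereas netrins are laminin-related secreted proteins that act through DCC, neogenin and the UNC5 receptors. In epithelial tumors EphA2 and EphB4 are widely studied for their part in migration and vessel growth, and DCC, UNC5 and neogenin are known as dependence receptors, which can promote cell death when their ligand is absent.

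Guidance genes differed widely between OV3/COX1KD and OV3/SCR cells, with the largest fall in the repulsive ligand SLIT2 and the largest rise among abundant members in the receptor EPHA3. By edgeR's quasi-likelihood test 22 of the 30 members that could be tested passed an FDR of 0.01, of which 15 were higher and 7 were lower in OV3/COX1KD cells. That is 73.3% of tested members, set against 47.9% of the 17309 genes tested. The called member EPHA8 passed the low-count filter through its OV3/COX1KD libraries alone, a selection that favours a difference. Without such genes 21 of 29 members (72.4%) and 47.7% of 16975 genes were called, and 13 members (44.8%) against 19.1% of genes lay beyond 0.5 on the log2 scale. Over all 30 tested members, EPHA8 included, the shares for higher calls were 50.0% of members against 25.8% of all genes, and for lower calls 23.3% against 22.1%. Without genes kept through 1 condition, 14 of 29 members and 4416 of 16975 genes were called higher, and 7 members and 3677 genes lower. With EPHA8 included, 14 members (46.7%) stood beyond a log2 fold change of 0.5 in either direction, against 19.9% of all genes. Of the 30 tested members, 10 were higher beyond that limit, against 9.87% of all genes. The 4 of 30 that were lower beyond it made a share near the 10.0% of all genes. The median log2 fold change was 0.32 over the 30 tested members, EPHA8 included, and -0.0087 over all genes tested, and the median of its size was 0.51 against 0.28. Abundant genes passed more often in general, and from a mean log2 CPM of 1 upwards (CPM, counts in proportion to the scaled library size) the share was 80.8% of 26 members against 57.7% of 13012 genes. The ranges of the 3 libraries of each condition did not overlap in 23 of the 30 tested members (76.7%), against 63.2% of all genes tested. EPHA8, favoured by its selection, is among the 23. No such count was made without genes kept through 1 condition or among abundant genes alone.

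The libraries held between 25291505 and 27391538 counts on genes, and 3 counts, the smallest level taken as detectable, corresponded to 0.113 to 0.120 TMM-normalized CPM, a floor that covers counting error only. PTGS1, the gene for COX-1, had 713, 658 and 641 counts in OV3/SCR replicates 1, 2 and 3 and 456, 486 and 501 in OV3/COX1KD. Its log2 fold change was -0.45 (SE 0.057, edgeR FDR 1.3e-06), in the direction of the labels. The 6 ovarian carcinoma markers were abundant in every library, at 2469 to 62802 counts each, and 5 of them were higher and PAX8 was lower in OV3/COX1KD cells. Markers of other cell types were far scarcer, though COL1A1 and RBFOX3 had a mean log2 CPM of 3.02 and 1.66. The 4 endothelial genes with a row summed to 76 to 108 counts in OV3/SCR and 98 to 125 in OV3/COX1KD, with CDH5 at 3 counts or fewer, and TEK alone was called higher. The 4 fibroblast genes summed to 289 to 297 and 169 to 181 counts, mostly from COL1A1, which was called lower, with LUM at 0 or 1. The 4 neuronal genes summed to 137 to 153 and 94 to 118 counts, mostly from RBFOX3, which was called lower, with SNAP25 at 4 counts or fewer. The 3 leukocyte genes summed to 19 to 25 and 7 to 17. Whether the counts of these other markers had any part in the results for the guidance genes was not tested. In bulk RNA, fewer cells expressing a gene and less RNA per cell cannot be told apart.

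The 250 bases upstream of the RefSeq start are printed for SLIT2, EFNB2 and EPHA2, the members with the largest falls, and for EPHA3, the abundant member that rose most, since the results below turn on these genes. The sequences are from RefSeq (GRCh38.p14), and each matched exactly once in the GRCh37 region around its own gene. The rest of the genome was not searched. The matches were at chr4:20253278-20253527 on the plus strand for SLIT2, chr13:107188011-107188260 on the minus strand for EFNB2, chr1:16482565-16482814 on the minus strand for EPHA2 and chr3:89156521-89156770 on the plus strand for EPHA3. Capitals mark an E-box (CACCTG or CAGGTG) or the core of a cyclic AMP response element, CRE (TGACG or CGTCA), each searched on both strands.

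SLIT2: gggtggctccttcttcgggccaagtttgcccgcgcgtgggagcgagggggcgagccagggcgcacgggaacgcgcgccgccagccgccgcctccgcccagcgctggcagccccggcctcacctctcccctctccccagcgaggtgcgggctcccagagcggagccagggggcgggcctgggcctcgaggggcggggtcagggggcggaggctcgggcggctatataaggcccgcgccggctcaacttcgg

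EFNB2: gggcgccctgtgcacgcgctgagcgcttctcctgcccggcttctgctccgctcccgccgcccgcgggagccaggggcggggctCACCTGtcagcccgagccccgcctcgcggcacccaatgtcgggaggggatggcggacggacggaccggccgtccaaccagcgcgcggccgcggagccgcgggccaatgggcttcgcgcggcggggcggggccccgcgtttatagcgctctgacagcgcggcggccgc

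EPHA2: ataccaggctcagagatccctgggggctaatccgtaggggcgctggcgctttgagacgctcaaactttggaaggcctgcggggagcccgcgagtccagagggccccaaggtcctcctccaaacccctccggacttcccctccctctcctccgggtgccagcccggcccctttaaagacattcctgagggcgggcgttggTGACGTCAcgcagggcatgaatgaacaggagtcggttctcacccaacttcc

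EPHA3: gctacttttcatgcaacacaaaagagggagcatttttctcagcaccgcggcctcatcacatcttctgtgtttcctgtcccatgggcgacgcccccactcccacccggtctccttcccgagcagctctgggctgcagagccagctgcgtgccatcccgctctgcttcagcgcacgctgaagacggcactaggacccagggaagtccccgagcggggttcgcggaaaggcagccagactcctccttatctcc

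The EFNB2 window held 1 E-box and the EPHA2 window a full CRE, in which the core occurs on both strands at overlapping positions, whereas neither motif was found in the SLIT2 and EPHA3 windows. GC content was 77.2% for SLIT2, 78.4% for EFNB2, 63.2% for EPHA2 and 61.2% for EPHA3. Of the 34 members, 29 had a window among the 35093 windows searched, which can include more than 1 for a gene (2 for NTN4). Only the first listed window of each member was counted, whereas the background counts every window of every gene. An E-box was present in 4 of the 29 member windows (13.8%), against 17.5% of all windows. The CRE core was present in 9 (31.0%) against 21.2%, and the full CRE (TGACGTCA) in EPHA2 alone (3.45%) against 1.65%. A GC box (GGGCGG or CCGCCC) was found in 23 of the 29 (79.3%) against 42.6% of all windows, and the member windows had a median GC content of 68% against 58% and a median of 19 CpG dinucleotides against 11. By direction, the CRE core was found in 5 of 13 members called higher and 2 of 6 called lower, the E-box in 2 of 13 and 2 of 6, and the GC box in 8 of 13 and 6 of 6. These matches describe letters in a window and say nothing of binding.

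Levels of the 34 members reached from under the floor of 3 counts up to 28.7 CPM per kb of exon, the scale on which genes are compared with each other here. The plot of levels by library shows that the separation between conditions was wide against the spread within them for the members with large differences. For the 26 members whose mean log2 CPM was 1 or more, the median coefficient of variation over the 3 libraries of a condition was 3.97% in OV3/SCR and 5.93% in OV3/COX1KD, and it was highest for EPHA6 (16.0% and 24.9%).

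**Figure D1:**
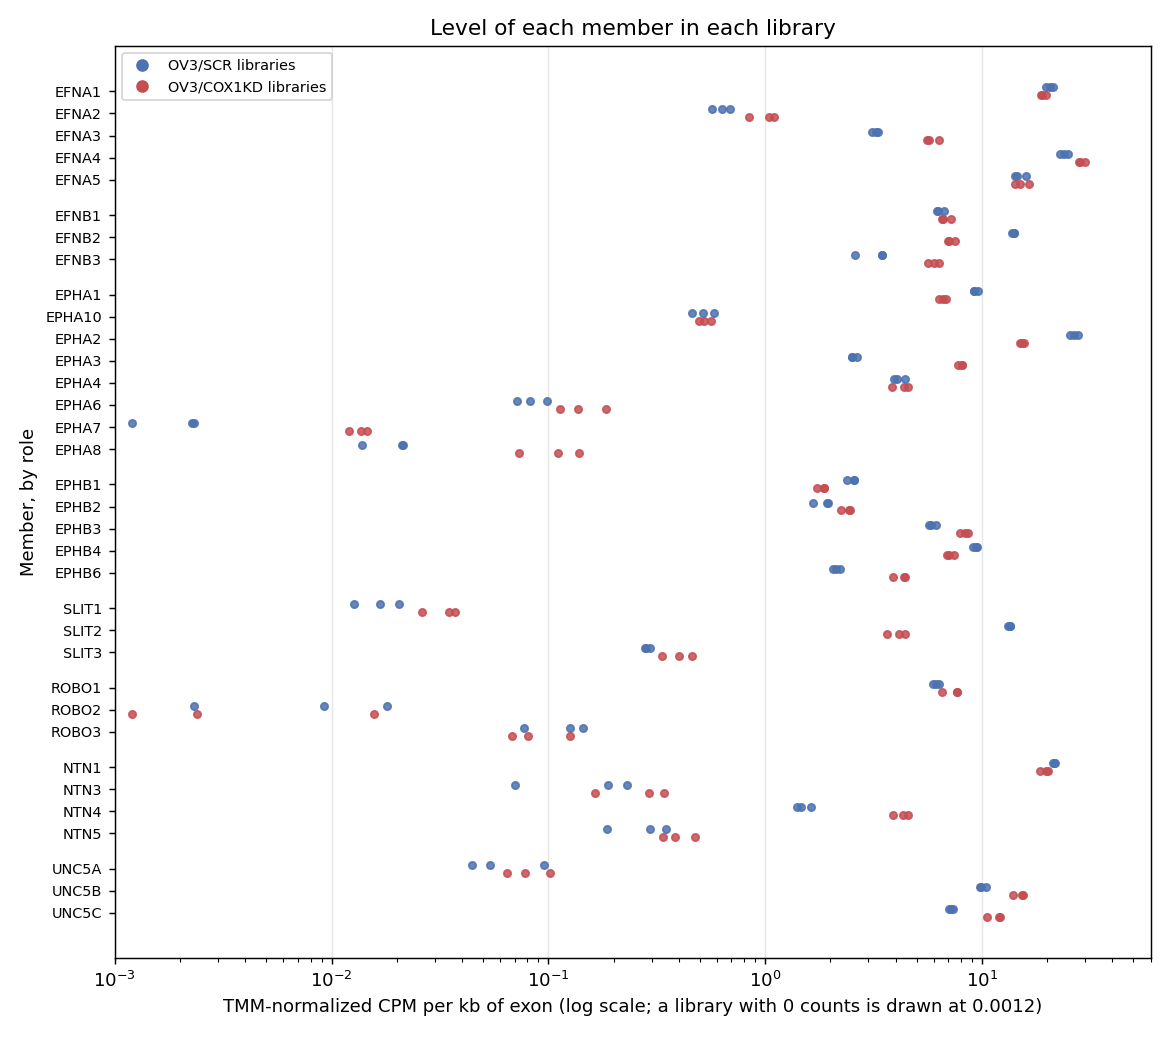
Level of each of the 34 members in each library, as TMM-normalized CPM per kb of exon on a log axis, grouped by role, with 3 points for OV3/SCR and 3 for OV3/COX1KD. A library with 0 counts is drawn at 0.0012. SLIT2 and EFNB2 points separate to the left in OV3/COX1KD, EPHA3 and NTN4 points to the right, and the lowest points are those of EPHA7, ROBO2 and SLIT1.

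Among A-type ephrins, the ligands preferred by EphA receptors, 3 of 5 were higher in OV3/COX1KD cells, none was called lower and EFNA1 and EFNA5 did not pass the test. All 5 had a mean log2 CPM of 1 or more, EFNA2 only just (1.03), and 60% called is near the 57.7% of all such genes. EFNA3 had 162, 165 and 167 counts in OV3/SCR and 279, 309 and 288 in OV3/COX1KD. The conditions did not overlap, and the TMM-normalized level rose from 6.29 ± 0.195 to 11.4 ± 0.810 CPM (SD, n = 3), a log2 fold change of 0.86 (SE 0.088, FDR 6.9e-08). Of the exon bases of EFNA3, 43.9% are shared with the annotated readthrough gene EFNA4-EFNA3 on the same strand, which was not analysed here, so reads of these genes could not be separated. EFNA4, at 24.0 CPM per kb the highest A-type ephrin in OV3/SCR, had 769, 781 and 815 counts there and 948, 881 and 946 in OV3/COX1KD. It also did not overlap between conditions, with a log2 fold change of 0.26 (SE 0.051, FDR 1.8e-04), and 15% of its exon bases lie in the same readthrough gene. EFNA2 was the lowest A-type ephrin, with 41, 36 and 43 counts against 67, 51 and 67. Its log2 fold change was 0.65 (SE 0.18, FDR 0.00417), and it no longer passed with DESeq2 (FDR 0.0188) or without any of 4 libraries, OV3/SCR replicate 1 (0.0139) or 2 (0.0235) and OV3/COX1KD replicate 1 (0.0237) or 3 (0.0180).

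EFNA1, a ligand of EphA2, had 1226, 1116 and 1154 counts in OV3/SCR and 1024, 1031 and 1141 in OV3/COX1KD. After TMM scaling every OV3/COX1KD library lay below every OV3/SCR library, but the log2 fold change of -0.098 (95% interval -0.19 to -0.0046) had an FDR of 0.0667 and passed only with total count scaling (-0.18, FDR 0.00240). EFNA5 gave 2218, 2400 and 2115 counts against 2379, 2045 and 2294, which overlapped, and its difference of 0.028 had a 95% interval of -0.077 to 0.13. Summed over the A-type ephrins, the level went from 63.3 ± 0.775 to 70.0 ± 1.86 CPM per kb, with no test made of the sum, and EFNA4 remained the highest of them at 28.7 CPM per kb. This order depends on the exon lengths used. In CPM alone EFNA5 (87.4) and EFNA1 (41.6) stood above EFNA4 (36.1) in OV3/COX1KD. The genes EFNA4, EFNA3 and EFNA1 lie next to each other on chromosome 1 between 155036213 and 155107375 (GRCh37), so the first and the last of this row of neighbours had estimates of opposite sign.

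B-type ephrins, which carry a cytoplasmic tail able to signal in the ephrin cell, moved apart from each other. EFNB2, the ligand of EphB4 and a marker of arterial endothelium, had 1847, 1837 and 1822 counts in OV3/SCR and 948, 877 and 943 in OV3/COX1KD. No library of one condition came near those of the other, and the level fell from 70.1 ± 0.693 to 36.0 ± 1.44 CPM, 1.95-fold lower (log2 fold change -0.96, SE 0.042, FDR 1.9e-13). The gene lies at chr13:107142093-107188010, and 36.4% of its exon bases are covered by a long non-coding gene on the opposite strand (ENSG00000284966). That gene was not analysed here, and the library kit does not mark strand, so its reads could not be separated from those of EFNB2. EFNB3, a ligand known mainly from the nervous system, went the other way, with 223, 291 and 288 counts against 488, 512 and 483. All 3 OV3/COX1KD libraries were above all OV3/SCR libraries, and its log2 fold change was 0.92 (SE 0.089, FDR 3.1e-08). EFNB1 had 553, 577 and 530 counts against 601, 547 and 579, overlapping, with a difference of 0.089 (95% interval -0.036 to 0.21, FDR 0.209).

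The share of each gene in the B-type ephrin mRNA differed between the conditions. EFNB2 made up 59.4% of the summed level per kb in OV3/SCR and 36.0% in OV3/COX1KD, EFNB3 went from 13.4% to 30.0%, and EFNB1 from 27.1% to 34.0%. The summed level was 23.6 ± 0.782 CPM per kb in OV3/SCR and 20.0 ± 0.750 in OV3/COX1KD, with library ranges that did not overlap. Thus EFNB2 was the highest B-type ephrin in both conditions, but in OV3/COX1KD its 7.20 CPM per kb lay close to the 6.81 of EFNB1 and the 6.01 of EFNB3. In CPM alone it stayed further above them there, at 36.0 against 22.5 for EFNB1 and 19.3 for EFNB3.

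**Figure D2:**
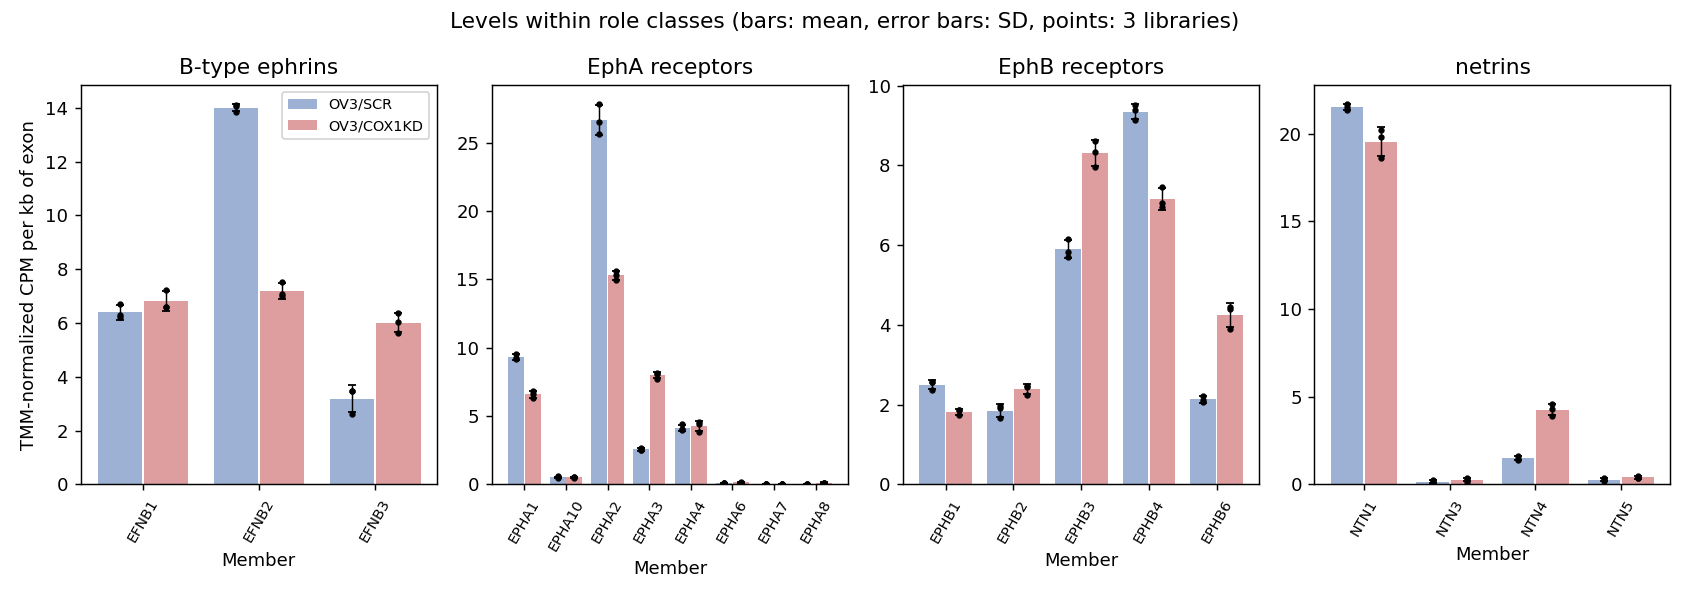
Level of each B-type ephrin, EphA receptor, EphB receptor and netrin within its class in TMM-normalized CPM per kb of exon, with bars for the mean, error bars for the SD and points for the 3 libraries of OV3/SCR and of OV3/COX1KD. EFNB2 and EPHA2 stand far above the rest of their class in OV3/SCR and less so in OV3/COX1KD, EPHB3 passes EPHB4 on this scale per kb, and NTN4 gains on NTN1.

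EphA receptors, tyrosine kinases that bind mainly the A-type ephrins, also shifted from one member to another. EPHA2, the most abundant of them and the best known in carcinoma, had 2827, 3004 and 2842 counts in OV3/SCR and 1625, 1592 and 1652 in OV3/COX1KD. The conditions were far apart, and the level fell from 110.4 ± 4.63 to 63.4 ± 1.29 CPM, 1.74-fold lower (log2 fold change -0.80, SE 0.038, FDR 8.4e-13), at chr1:16450832-16482564. EPHA3 (chr3:89156771-89531284), a receptor of EFNA5 with roles in cell repulsion, had 467, 431 and 427 counts against 1341, 1274 and 1422. Its libraries did not overlap either, and its level rose from 16.9 ± 0.572 to 52.5 ± 1.44 CPM, 3.11-fold higher (log2 fold change 1.64, SE 0.050, FDR 1.0e-15). EPHA1, the founding member of the receptor family, had 1196, 1130 and 1117 counts against 780, 805 and 795. It was lower in every OV3/COX1KD library, with a log2 fold change of -0.50 (SE 0.046, FDR 1.7e-08) that lay at the 0.5 limit.

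As a share of the summed EphA level per kb, EPHA2 went from 61.5% in OV3/SCR to 43.8% in OV3/COX1KD and EPHA3 from 5.92% to 22.8%, so that EPHA3 moved from the fourth to the second place among EphA receptors, past EPHA1 and EPHA4. The summed level went from 43.3 ± 0.871 to 34.9 ± 0.572 CPM per kb. EPHA4, which binds both classes of ephrins, had 819, 778 and 860 counts against 834, 727 and 915 and overlapped, with a difference of 0.041 (95% interval -0.086 to 0.17, FDR 0.581). EPHA10, which lacks kinase activity, had 97 to 123 counts in OV3/SCR and 107 to 115 in OV3/COX1KD, a difference of 0.023 (95% interval -0.24 to 0.28, FDR 0.883).

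The remaining EphA receptors, best known from the nervous system, were scarce. EPHA6 had 40, 47 and 34 counts in OV3/SCR and 85, 52 and 67 in OV3/COX1KD. It did not overlap, with a log2 fold change of 0.78 (SE 0.20, FDR 0.00247), but missed the threshold without OV3/SCR replicate 1 (FDR 0.0116) or 3 (0.0186) or OV3/COX1KD replicate 1 (0.0265), and 11% of its exon bases are shared with a long non-coding gene (ENSG00000261292). EPHA8 had 2, 3 and 3 counts against 19, 10 and 16, so OV3/SCR lay at or under the floor in every library. The ratio of its depth-adjusted summed counts was 5.75 (95% exact interval for counting error 2.68 to 14.1). It was kept by the low-count filter only because of its OV3/COX1KD counts, so its call is partly fixed by that selection, and its level is given as a description. EPHA7 had 1, 1 and 0 counts against 5, 6 and 6 and fell under the low-count filter. The ratio of its summed counts was 8.69 with a counting interval of 2.06 to 77.5, and with no filter it had an FDR of 0.00601, at a level of 0.221 CPM in OV3/COX1KD. EPHA8 lies on chromosome 1 at 22889982 to 22930088, upstream of EPHB2, at 23037332 to 23247993. EPHB2 was called higher, but because of that selection the call of EPHA8 is not set beside it.

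All 5 EphB receptors were called, 3 higher and 2 lower, where 57.7% of all abundant genes (mean log2 CPM of 1 or more) were called. EPHB4, the receptor of EFNB2 and a marker of venous endothelium, was the highest of them in OV3/SCR and had 1632, 1576 and 1520 counts there and 1125, 1204 and 1208 in OV3/COX1KD. The ranges did not overlap, and the log2 fold change was -0.39 (SE 0.042, FDR 1.5e-07), so this receptor and its ligand EFNB2 were lower together. EPHB6, a receptor without kinase activity, had 292, 309 and 292 counts against 595, 520 and 622. Every OV3/COX1KD library was far above OV3/SCR, the level going from 11.4 ± 0.456 to 22.6 ± 1.59 CPM, 1.99-fold higher (log2 fold change 0.99, SE 0.069, FDR 2.6e-10). EPHB3, which with EPHB2 orders epithelial cells in the intestinal crypt, had 690, 687 and 721 counts against 981, 903 and 1006. It was higher throughout, by 0.49 on the log2 scale (SE 0.051, FDR 7.5e-08), just inside the 0.5 limit.

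EPHB2 had 557, 627 and 634 counts in OV3/SCR and 780, 702 and 817 in OV3/COX1KD (log2 fold change 0.37, SE 0.063, FDR 4.7e-05). EPHB1, in contrast, had 399, 362 and 389 against 255, 274 and 290 (log2 fold change -0.46, SE 0.072, FDR 1.9e-05). Neither gene overlapped between the conditions. On the scale per kb EPHB4 held 43.0% of the summed EphB level in OV3/SCR and 29.9% in OV3/COX1KD, and EPHB3 27.1% and 34.7%, so that EPHB3 took the first place on that scale. This order depends on the exon lengths used (6437 bases for EPHB4 and 4530 for EPHB3). In CPM alone EPHB4 stayed above EPHB3 in OV3/COX1KD, at 46.0 against 37.6. The share of EPHB6 went from 9.83% to 17.7%, while the summed EphB level was 21.7 ± 0.217 CPM per kb in OV3/SCR and 23.9 ± 0.416 in OV3/COX1KD. Over both receptor classes 10 of 12 tested Eph receptors were called (6 higher and 4 lower), and over both ephrin classes 5 of 8 (4 higher and 1 lower). Among abundant genes only, 9 of 11 receptors (81.8%) and 5 of 8 ephrins (62.5%) were called against 57.7% of all, so the share of ephrins was near the background.

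**Figure D3:**
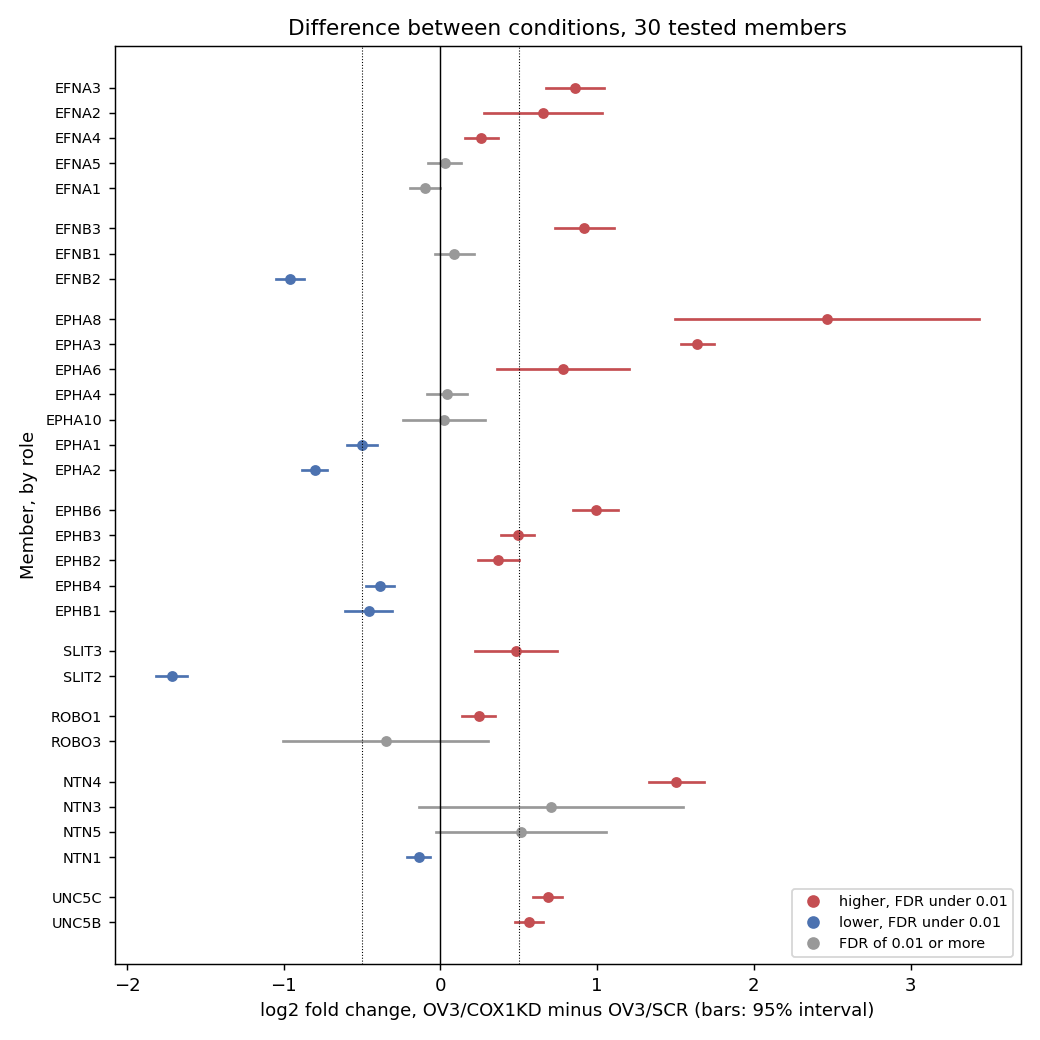
Log2 fold change of OV3/COX1KD against OV3/SCR for the 30 tested members, by role, with bars for the 95% interval and colour for the call at an FDR under 0.01. SLIT2 at -1.71 is the lowest point. EPHA8, fitted on few counts, has the widest interval among the called members, and rises and falls stand side by side in most role classes.

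SLIT2, the main Slit of these cells, showed the largest fall of the family. It had 3913, 3871 and 3870 counts in OV3/SCR and 1152, 1016 and 1309 in OV3/COX1KD. The conditions were far apart, and the level fell from 148 ± 1.47 to 45.2 ± 4.33 CPM, 3.28-fold lower (log2 fold change -1.71, SE 0.048, FDR 2.9e-16), at chr4:20253528-20622184. SLIT3, a secreted Slit of the same structure, was far scarcer, with 107, 104 and 109 counts against 120, 144 and 174. It was higher in every OV3/COX1KD library (log2 fold change 0.48, SE 0.13, FDR 0.00269), and the call was lost without OV3/SCR replicate 1 (FDR 0.0118) or 2 (0.0139) or OV3/COX1KD replicate 3 (0.0256). SLIT1 had 3 to 5 counts in OV3/SCR and 6 to 9 in OV3/COX1KD and was not tested in the filtered table. The rise of SLIT3 was small beside the fall of SLIT2 in level per kb. The summed Slit level went from 13.7 ± 0.135 to 4.51 ± 0.417 CPM per kb, with SLIT2 at 97.8% and 90.4% of it.

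ROBO1, the receptor of SLIT2 and 98.0% of the summed Robo level per kb in OV3/SCR, had 1813, 1711 and 1822 counts there and 2130, 1809 and 2257 in OV3/COX1KD. After TMM scaling the conditions did not overlap, but the nearest libraries were close (OV3/SCR replicate 3 at 70.5 and OV3/COX1KD replicate 2 at 72.2 CPM). ROBO1 was higher by 0.24 on the log2 scale (SE 0.051, FDR 4.2e-04), the opposite direction to its ligand. Under the other settings its log2 fold change was 0.165 to 0.322. ROBO3, a divergent Robo with a role in axon crossing, had 27, 23 and 14 counts against 12, 22 and 15, overlapping, and its difference of -0.35 had a 95% interval of -1.01 to 0.31. ROBO2, another Slit receptor, had 8, 4 and 1 counts against 0, 1 and 7 and was not tested. Its ratio of 0.629 had a counting interval of 0.226 to 1.64, so a difference in ROBO2 was not detectable at this depth. No row of the count table carried the symbol ROBO4.

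Netrins showed a small fall of the main member and a large rise of a scarcer one. NTN1, the ligand of DCC and UNC5 receptors, had 3708, 3566 and 3570 counts in OV3/SCR and 3202, 2990 and 3449 in OV3/COX1KD. The scaled levels did not overlap, but the fall was small, -0.14 on the log2 scale (SE 0.035, FDR 0.00195), and was lost without OV3/SCR replicate 1 (FDR 0.0137) or 3 (0.0142). With total count scaling it was -0.22. NTN4, a netrin of basement membranes that binds laminin, had 170, 186 and 159 counts against 503, 428 and 501. All OV3/COX1KD libraries were far above OV3/SCR, and the level rose from 6.56 ± 0.517 to 18.6 ± 1.46 CPM, 2.84-fold higher (log2 fold change 1.51, SE 0.084, FDR 8.7e-12). NTN1 nonetheless remained the bulk of netrin mRNA per kb, at 91.7% in OV3/SCR and 79.8% in OV3/COX1KD, while NTN4 went from 6.40% to 17.4% and the summed level from 23.5 ± 0.196 to 24.5 ± 1.04 CPM per kb.

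NTN3 had 11, 4 and 13 counts in OV3/SCR and 9, 16 and 20 in OV3/COX1KD, and NTN5 had 29, 24 and 15 against 30, 37 and 28. Both overlapped after scaling and neither passed, with log2 fold changes of 0.71 (95% interval -0.13 to 1.55) and 0.51 (95% interval -0.030 to 1.06). UNC5 receptors, which transmit the repulsive signal of netrins, were higher in both tested members. Of all genes tested, 25.8% were called higher, and of all abundant genes 57.7% were called in either direction. UNC5B had 1789, 1871 and 1758 counts against 2668, 2382 and 2791. Its OV3/COX1KD libraries were all above OV3/SCR, the level going from 69.0 ± 2.49 to 101.9 ± 6.0 CPM (log2 fold change 0.56, SE 0.043, FDR 9.9e-10). UNC5C had 2013, 1998 and 2031 counts against 3272, 2831 and 3402. It was likewise higher in each library, the level going from 76.9 ± 1.54 to 123.6 ± 9.24 CPM (log2 fold change 0.68, SE 0.045, FDR 1.0e-10). UNC5A had 11, 5 and 6 counts against 7, 11 and 9 and was not tested, with a ratio of 1.25 and a counting interval of 0.688 to 2.31. The summed UNC5 level went from 17.3 ± 0.371 to 26.5 ± 1.72 CPM per kb, with UNC5B at 58.1% and 56.1% of it.

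The study's stricter rule, which asks for a fold change above 2.5 beside the FDR of 0.01, was met by EPHA3 and NTN4, higher, and SLIT2, lower. These are 3 of the 29 members (10.3%) left when genes kept by the filter through 1 condition alone are set aside, against 2.92% of all genes on the same terms. With such genes EPHA8 made 4 of 30, against 3.92%.

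The genes around the called members were compared with them. For each of the 22, the median log2 fold change of tested genes within 2 Mb whose mean log2 CPM was 1 or more lay within 0.5 of 0, between -0.25 and 0.39, and it had the sign of the member in 12 of the 22. SLIT2 had 3 such neighbours with a median of 0.19, all of them above it. The 4 neighbours of EPHA3 had a median of 0.023 and all lay below it. The 15 of NTN4 had a median of 0.18, and 9 of them were called higher and 0 lower. Of these 15, 1 lay above NTN4, at 1.56, and 14 lay below it. EFNB2 had 3 neighbours with a median of -0.25, all above its own value. EPHB6 and EPHA1 lie near each other on chromosome 7, at 142552823 to 142568847 and 143087382 to 143105949, and went in opposite directions, with neighbour medians of -0.14 and -0.021. The highest neighbour median, 0.39 over 5 genes, was that of UNC5C. Of these genes 3 were called higher and 0 lower, and 2 lay above UNC5C and 3 below it.

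**Figure D4:**
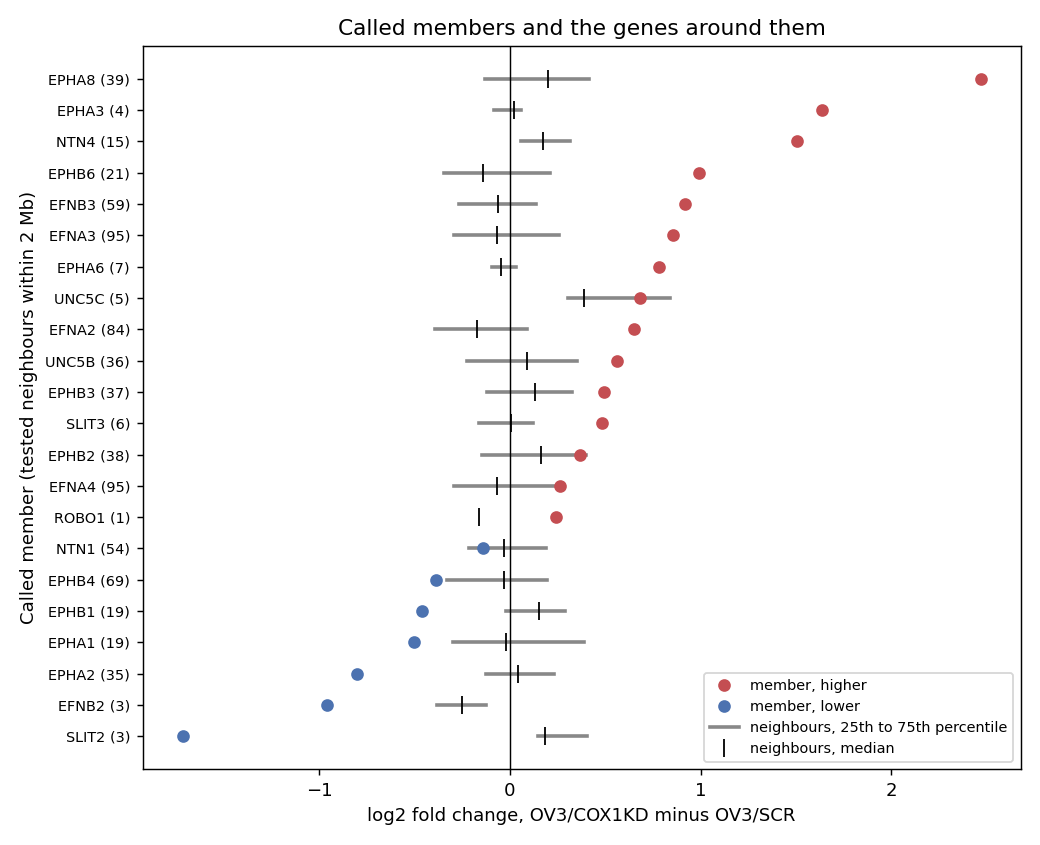
Log2 fold change of each of the 22 called members beside the genes tested within 2 Mb of it (their number in brackets), with their median and quartile range. The neighbour medians lie between -0.25 and 0.39, while SLIT2, EPHA3, NTN4 and the scarce EPHA8, whose fitted value depends on few counts, lie far from them.

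Genes that act downstream of Eph receptors and ephrins, such as adaptors, exchange factors and kinases, were called at about the rate of all genes. Of 25 listed effectors 24 were tested and 12 were called, 6 higher and 6 lower (50%, background 47.9%), and their median log2 fold change was 0.016. GRB7, an adaptor that binds EphB1, had 396, 358 and 347 counts in OV3/SCR and 593, 598 and 632 in OV3/COX1KD. It was higher in every library, with a log2 fold change of 0.76 (SE 0.061, FDR 1.9e-09). CHN1, the RacGAP alpha-chimaerin that acts behind EphA4, had 372, 337 and 365 against 211, 206 and 232. It was lower throughout, with a log2 fold change of -0.70 (SE 0.076, FDR 1.8e-07). The next rises were the Rac exchange factor TIAM1 (0.50, FDR 3.9e-07), the adaptor NCK1 (0.23, FDR 2.6e-04) and the kinase SRC (0.21, FDR 3.0e-04, lost with total count scaling, FDR 0.0122). The next falls were the phosphatase PTPN1 (-0.51, FDR 9.7e-10) and the exchange factors ITSN1 (-0.38, FDR 4.5e-08) and KALRN (-0.26, FDR 1.4e-04). ADAM10, the protease that cleaves ephrins at cell contacts, gave 0.058 (95% interval -0.0061 to 0.12) and did not pass.

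Of 23 listed partners of Slits, Robos and netrins 22 had a row, 20 were tested and 15 were called, 9 higher and 6 lower (75%, background 47.9%), with a median of 0.022. Among genes with a mean log2 CPM of 1 or more, 13 of 18 partners (72.2%) were called, against 57.7% of all such genes. Without NTNG2, which like EPHA8 passed the low-count filter through OV3/COX1KD alone, 14 of 19 were called (73.7%, background 47.7%). NEO1, encoding the netrin and RGM receptor neogenin, had 3495, 3755 and 3536 counts in OV3/SCR and 6342, 5670 and 6734 in OV3/COX1KD. The ranges were far apart, and the log2 fold change was 0.83 (SE 0.042, FDR 2.1e-12). DCC, the other classical netrin receptor, had 0 to 2 counts in every library, under the floor of 3. RGMA, a ligand of neogenin, was scarce but higher (32, 27 and 29 counts against 96, 68 and 73, log2 fold change 1.46, FDR 2.5e-06), as was the membrane-anchored netrin NTNG1 (1.38, FDR 6.7e-05). Its relative NTNG2 had 2, 8 and 5 against 19, 15 and 18 counts, given as a description because of that selection. The falls were led by VASP, an actin regulator, with 2236, 2101 and 2219 counts against 1151, 1157 and 1368 (log2 fold change -0.80, FDR 9.5e-12). The exchange factor TRIO, which acts behind DCC, fell by 0.69 on the log2 scale (FDR 3.9e-09), the deubiquitinase USP33, which binds Robo1, by 0.43 (FDR 5.1e-09), and DOCK1, a Rac exchange factor, by 0.41 (FDR 2.0e-04). Among netrin receptors NEO1, UNC5B and UNC5C were thus called higher, while DCC and UNC5A were too scarce to test. For comparison, 25.8% of all genes tested were called higher.

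**Figure D5:**
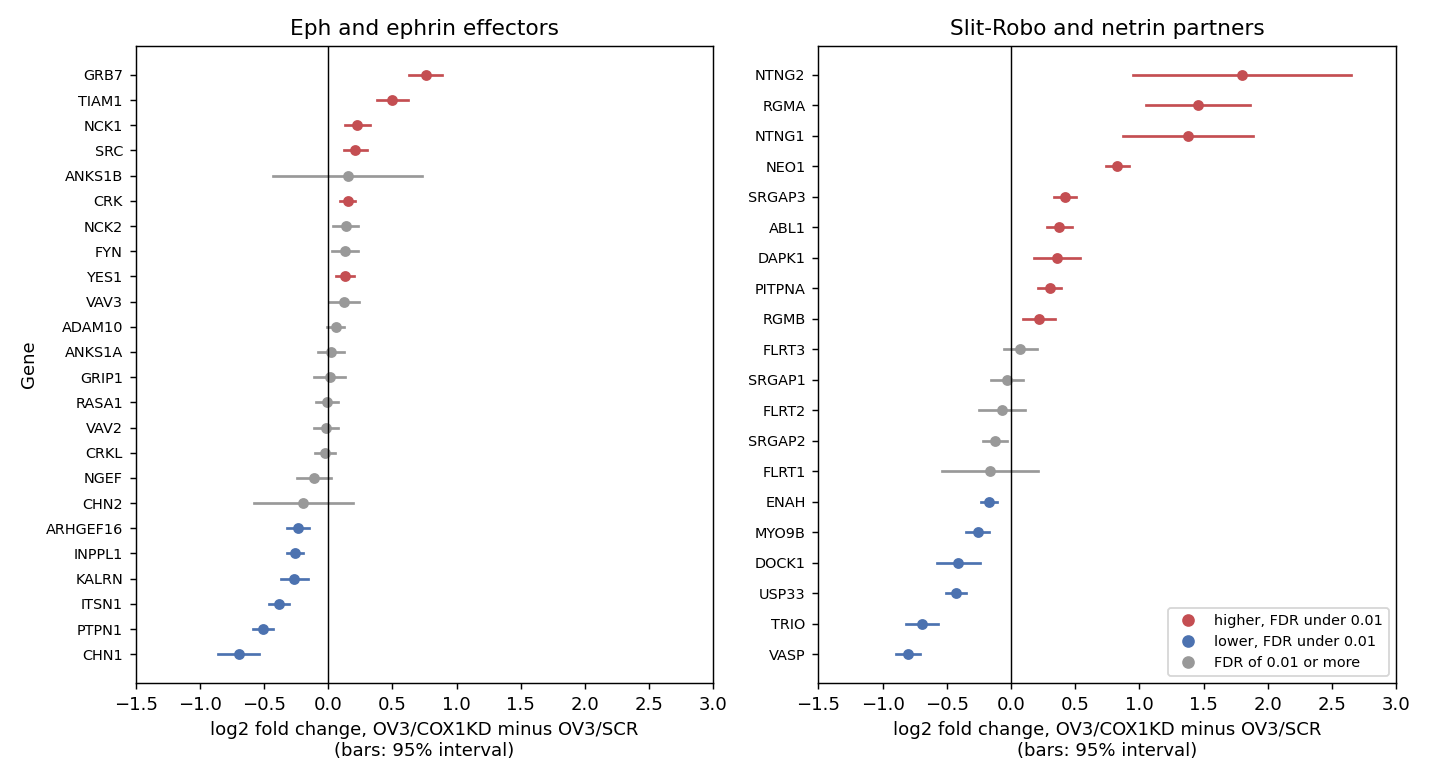
Log2 fold change of OV3/COX1KD against OV3/SCR for the tested Eph and ephrin effectors (left) and Slit-Robo and netrin partners (right), with bars for the 95% interval and colour for the call at an FDR under 0.01. The effectors lie between -0.70 and 0.76 and the partners between -0.80 and 1.80, and NTNG2 has the widest interval of the named genes.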

How the data were processed

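RNA was sequenced on an Illumina HiSeq instrument from 3 OV3/SCR and 3 OV3/COX1KD libraries made with a TruSeq kit that does not mark strand. Reads were aligned to hg19 by the authors with TopHat2 (version 2.0 in the submitters' processing notes), and the per-gene HTSeq counts were deposited as raw counts, not normalized. The annotation and strand setting of the counting are not given in the sources used here. The labels gave condition and replicate number, and the study gave the clones.

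The analysis used edgeR 4.0.16 under R 4.3.3. Libraries were scaled by TMM, genes kept by filterByExpr (17309 of 34811), and the conditions compared with glmQLFit and glmQLFTest, condition being the only term, with Benjamini-Hochberg adjustment over all kept genes (FDR). Common dispersion came to 0.00103 (biological coefficient of variation 3.21%). A call is an FDR under 0.01. The standard error is the size of the log2 fold change over the square root of F, and 95% intervals used the t distribution of the fit. Ratios of summed counts for scarce members carry exact binomial intervals for counting error only, since PCR reads are not independent molecules. Pairs of libraries of a condition differed by more than sampling noise (chi-square per degree of freedom 1.82 to 6.31, against 45.8 to 60.6 across conditions), so none was a copy of another.

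Levels per kb divide by the exon bases of the GRCh37 lift of GENCODE 44, which has the coordinates of hg19 (33556 of 34811 genes and 34 of 34 members had an entry). The order of genes within a role can depend on these lengths. The symbol rule, the partner and marker lists and the tests were chosen with earlier results of these data known. Library values are given for members beyond 0.5 in log2 fold change and for the highest per kb in each role, and for others where a comparison needed them. Of each partner list the 4 largest rises and 4 largest falls among calls are named. Other settings were DESeq2 1.42.0, no low-count filter, a minimum of 10 counts in each library, scaling by total count or by RLE, the replicate number as a block, each library left out in turn, and the study's fold change above 2.5. The edgeR script was tested on simulated data.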

Additional observations from a re-analysis of the deposited data

How the results depend on the processing

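Of 356 refits of single members under other settings, 334 kept their direction and side of the threshold, 13 lost the call, 1 gained it (EFNA1 with total count scaling) and 8 changed sign. Of the 22 called members 18 kept the call in every setting that gave a value. EFNA2, EPHA6, SLIT3 and NTN1 lost it in the settings given beside them, and EPHA8 had no value with at least 10 counts in every library or without OV3/COX1KD replicate 1 or 3. All sign changes were in members that did not pass the test. With total count scaling EFNA5 gave -0.050, EPHA10 -0.055 and EPHA4 -0.037, and leaving out each library in turn gave -0.029 to 0.085 for EFNA5 (below 0 without OV3/SCR replicate 3 or OV3/COX1KD replicate 1), -0.051 to 0.11 for EPHA10 (below 0 without the same libraries) and -0.0075 to 0.12 for EPHA4 (below 0 without OV3/COX1KD replicate 3). Total count scaling lowered the median of all genes by only 0.078, but turned 4473 higher and 3820 lower calls into 3466 and 4978, and left 3 effectors called higher. A fold change above 2.5 left 679 genes (274 higher, 405 lower), 4 members (3 higher, 1 lower), 0 effectors (0 higher, 0 lower, against 12 by FDR alone) and 3 partners (3 higher, 0 lower). EPHA8 and NTNG2 are among these. Without genes kept through 1 condition, 3 members (10.3%) and 2 partners (10.5%) were left, against 2.92% of all genes. Leaving out of the counts the genes that the filter kept through 1 condition only, an alternative chosen after seeing the data, gave 21 members, 8093 genes, 12 effectors and 14 partners. The members called numbered 21 with DESeq2 or at least 10 counts in every library, 22 with RLE size factors and 23 with no filter or total count scaling. With each library left out in turn they numbered 18 to 22 (12 to 15 higher, 6 to 7 lower). All genes called then numbered 7124 to 8989, effectors 11 to 14 and partners 13 to 16. With the replicate number as a block 8233 genes (4437 higher, 3796 lower) and 22 members were called, and no call of a member changed. Same-numbered libraries correlated at only 0.00447 to 0.0424 in their deviations, and 2 of 6 libraries correlated best with their own number, so the numbers were not taken as a pairing. Depth limits EPHA7, SLIT1, ROBO2 and UNC5A, which no test in the filtered table covered.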
